A study of Mus musculus with 6 samples.

Results

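The genes of oxidative phosphorylation were followed in RNA from mouse tooth germs, the developing first molars of pups at postnatal day 7. Members were the rows of the authors' normalised table named mt-, Nduf, Uqcr, Atp5 or Cox4 to Cox8, together with Sdha, Sdhb, Sdhc, Sdhd, Cyc1 and Cycs, and names marked as pseudogenes were left out. This gave 111 of 20162 rows. Of these, 92 were nuclear genes and 19 lay on the mitochondrial genome. The nuclear genes were 36 of complex I, 4 of complex II, 9 of complex III, 18 of complex IV, 15 of complex V, the cytochrome c gene Cycs, and 9 genes of assembly or accessory factors. The mitochondrial rows were 13 mRNAs, 2 rRNAs and 4 tRNAs.

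There were 2 groups of 3 libraries from littermates of strain C57BL/6, wild type (WT) and Gpr115-/- (called Gpr115-KO). Gpr115 (current symbol Adgrf4) is a receptor of the adhesion G protein-coupled family, and the study's title ties it to the mineralisation of enamel. No part of the gene is named as deleted in the sources used here, and no source says whether a library was 1 animal or a pool, so a p-value here speaks of the spread among these libraries only. Values below are given in the order replicate 1, 2, 3 of each group.

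Oxidative phosphorylation passes electrons from NADH (through complex I) or succinate (through complex II) to ubiquinone, then through complex III and cytochrome c to oxygen at complex IV. Complexes I, III and IV pump protons across the inner mitochondrial membrane, and complex V, the ATP synthase, lets them back to make ATP. The mitochondrial genome encodes core subunits of complexes I, III, IV and V together with the rRNAs and tRNAs to translate them, and every subunit of complex II is nuclear. Its long transcripts are cut at the tRNAs that lie between the genes. Enamel-forming ameloblasts carry many mitochondria during secretion and maturation, when they move large amounts of ions.

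Library totals were 8317302 to 11122821 counts. Adgrf4 read 67.1, 62.5 and 67.5 CPM in WT, against 39.2, 20.6 and 27.5 CPM in Gpr115-KO, lower in each Gpr115-KO library, with an adjusted p of 0.0887 in edgeR's quasi-likelihood test. CPM are counts scaled to 1000000 by the TMM-scaled library size. Markers of the labelled tissue were abundant: 12 ameloblast genes summed to 113520 to 146705 CPM in WT, against 96907 to 204078 CPM in Gpr115-KO, and 10 odontoblast genes to 47265 to 100432 and 53377 to 87492 CPM. Gpr115-KO replicate 2 stood apart. It was the highest library for 26.3% of the 16011 genes tested and the lowest for 24.9%, and the 20 skeletal muscle markers summed to 350 CPM there against 39.8 to 89.9 CPM in the other libraries, with 18 of the 20 highest in that library. In bulk tissue, fewer cells of a type and less RNA per cell cannot be told apart.

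Between the genotypes, no member passed the threshold of an adjusted p under 0.05 in edgeR's quasi-likelihood test. Of the 111 members, 107 had enough counts to be tested, and mt-Te, mt-Tm, Cox6a2 and Cox8b did not. Across all genes 0.0375% were called higher in Gpr115-KO and 0.112% lower. The members' adjusted p-values ran from 0.137 (Ndufb8) to 0.995. An unadjusted p under 0.05 was reached by 8 members with higher values in Gpr115-KO (mt-Rnr1, mt-Atp6, mt-Cytb, mt-Ts1, Ndufb8, Ndufc2, Ndufs4 and Cox8a) and by 0 with lower values, where 4.85% and 7.48% of all tested genes did. That count of 8 was 1 without WT replicate 1 or without Gpr115-KO replicate 2, 2 without WT replicate 2, 15 without WT replicate 3 and 20 without Gpr115-KO replicate 3. All 3 Gpr115-KO libraries lay above all 3 WT libraries for 8 members and below them for 1, against 8.55% and 8.99% of all tested genes, so neither share of the 107 exceeded the background. DESeq2's Wald test called 1 member, Ndufb8, where it called 65 genes higher and 184 lower among all 16011.

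The members' fold changes lay mostly above 0. Of the 107 tested, 93 were above 0 (86.9%), and their median log2 fold change was 0.24, where 51.3% of all tested genes were above 0 with a median of 0.01. Without Gpr115-KO replicate 2 the count was 76 of 107 and the median 0.07, and without WT replicate 1 it was 84 of 107 with a median of 0.14. Medians below are of log2 fold changes with all 6 libraries unless said otherwise. For complexes I, II, III, IV and V in turn, the nuclear genes' medians without WT replicate 1 were 0.11, 0.04, 0.10, 0.20 and 0.08, and without WT replicate 3 they were 0.31, 0.12, 0.36, 0.40 and 0.37. Without Gpr115-KO replicate 3 those of complexes I and II were 0.27 and 0.13.

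The mitochondrial genome held the most abundant members. Its 13 mRNAs summed to 1667, 1776 and 2053 CPM in WT, against 2156, 3218 and 2012 CPM in Gpr115-KO. The Gpr115-KO mean was 1.34 times the WT mean, and 1.14 times without Gpr115-KO replicate 2, which itself stood at 1.76 times. Replicate 3 of Gpr115-KO lay below replicate 3 of WT, so the groups overlapped. The median log2 fold change of the 13 was 0.45, and 0.19 without Gpr115-KO replicate 2. By gene, 12 of 13 were above 0 and 0 were called.

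Per kb of transcript, a scale that corrects for annotated length, levels along this genome differed widely. The 16S rRNA, mt-Rnr2, stood at 1875 CPM per kb on average and the 12S rRNA, mt-Rnr1, at 125. Of the mRNAs, mt-Nd1, a membrane subunit of complex I, was highest with 898 CPM per kb. The catalytic subunit of complex IV, mt-Co1, followed with 328 and cytochrome b of complex III, mt-Cytb, with 271. Next came mt-Nd4, mt-Nd2 and mt-Nd6, further complex I subunits, at 113, 109 and 96.8 CPM per kb, and their libraries overlapped on this scale.

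**Figure D1:**
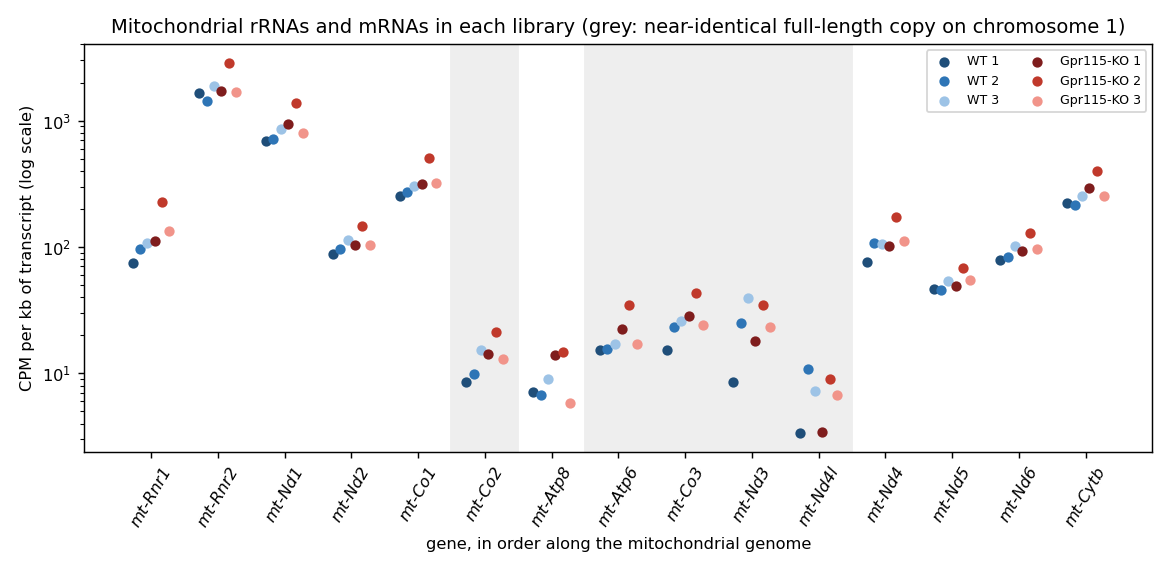
Level of each mitochondrial rRNA and mRNA in the 6 libraries, in CPM per kb of transcript on a log scale, in the order of the genes along the mitochondrial genome. Points are single libraries, and grey marks the 5 mRNAs with a near-identical full-length copy on chromosome 1, which lie between 6.75 and 26.7 CPM per kb on average. Gpr115-KO replicate 2 is the highest point for most genes.

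Low levels fell on a run of neighbouring genes for which the nuclear genome holds copies. In the annotation, 7 copies lie side by side on chromosome 1, from 24611535 to 24616197 (4663 bp on GRCm38), with 99.7% to 100% identity over the aligned stretch. They are Gm10925 (mt-Atp6), Gm28661 (mt-Co2), Gm28437 (mt-Co3), Gm28438 (mt-Nd3), Gm10222 (mt-Nd4l), Gm28439 (876 nt of mt-Nd4) and Gm29216 (the last 483 nt of mt-Co1). A further copy of mt-Co1, Gm13340 on chromosome 2, spans its full 1545 nt at 97.6% identity. A stretch of mt-Co1 is shown beside both copies, since a read carries a mark of its origin only where they differ. The sequences come from the GENCODE vM21 transcripts and are written along the strand of mt-Co1. Capitals mark the 3 bases at which Gm13340 differs.
mt-Co1, chrM:6448-6507: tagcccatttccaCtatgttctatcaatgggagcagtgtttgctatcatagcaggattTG
Gm29216, chr1:24616071-24616130, minus strand: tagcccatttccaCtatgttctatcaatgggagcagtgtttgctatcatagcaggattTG
Gm13340, chr2:22588468-22588527, minus strand: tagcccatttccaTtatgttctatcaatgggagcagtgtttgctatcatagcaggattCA
In this stretch the chromosome 1 copy and mt-Co1 were identical.

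The 5 mRNAs with a near-identical copy of full length (mt-Atp6, mt-Co2, mt-Co3, mt-Nd3 and mt-Nd4l) had a median of 20.3 CPM per kb, and the other 8 mRNAs a median of 111 with a range of 9.54 (mt-Atp8) to 898. The gene mt-Atp8 lies between mt-Co2 and mt-Atp6 and has no annotated copy of its own. On chromosome 1 the copy of mt-Atp6 ends at 24614651 and that of mt-Co2 starts at 24614885. Only annotated transcripts were searched, so the bases between these copies were not compared with mt-Atp8. Whether its low level is free of the same limit is not known. Each of the 5 copies carried more CPM than its mitochondrial gene. Gm10925 read 21.0 CPM in WT on average and mt-Atp6 10.9, and Gm10222 read 10.7 CPM and mt-Nd4l 2.10. The sources used here do not give how reads that match both places were counted, so the level of these 5 genes, of mt-Nd4 and of the end of mt-Co1 cannot be told apart from that of the copies. Log2 fold changes of the 7 copies on chromosome 1 ran from 0.10 (Gm28438) to 0.79 (Gm28437), with no call.

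The other overlaps lie within the mitochondrial genome. Genes for subunits a and 8 of the ATP synthase, mt-Atp6 and mt-Atp8, share the 43 bases below, in which the start codon of mt-Atp6 and the last codons of mt-Atp8 are read in different frames. Capital letters are absent because the whole stretch is shared.
mt-Atp8 and mt-Atp6, chrM:7927-7969, plus strand, GRCm38: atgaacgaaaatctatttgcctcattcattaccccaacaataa
A read inside it belongs to both. The single mRNA of the other strand, mt-Nd6, overlaps the end of mt-Nd5, and the libraries carry no strand mark.

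Among the 13 mitochondrial mRNAs, 3 had all Gpr115-KO libraries above all WT libraries, as did 8.55% of all tested genes. The gene mt-Atp6 read 10.4, 10.7 and 11.6 CPM in WT, against 15.3, 23.5 and 11.6 CPM in Gpr115-KO. Its log2 fold change was 0.62 (SE 0.26), with an adjusted p of 0.364 in edgeR's quasi-likelihood test, and the lowest Gpr115-KO library lay just above the highest WT library. Levels of mt-Co1 were 394, 420.1 and 468 CPM in WT, against 484, 782 and 492 CPM in Gpr115-KO (log2 fold change 0.45, SE 0.22, edgeR adjusted p 0.423). For mt-Cytb they were 254, 245 and 287 CPM in WT, against 334, 453 and 288 CPM in Gpr115-KO (log2 fold change 0.45, SE 0.20, edgeR adjusted p 0.384), where the nearest libraries of the 2 groups differed by less than 1 CPM. In these 3 genes Gpr115-KO replicate 2 was the highest of the 6 libraries. Without it their log2 fold changes were 0.30 (mt-Atp6), 0.19 (mt-Co1) and 0.25 (mt-Cytb), with edgeR adjusted p-values of 0.731, 0.785 and 0.709.

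In the remaining mRNAs the groups overlapped. The most abundant, mt-Nd1, read 664, 687 and 825 CPM in WT, against 894, 1315 and 769 CPM in Gpr115-KO, so WT replicate 3 exceeded Gpr115-KO replicate 3 (log2 fold change 0.45, SE 0.23, and 0.20 without Gpr115-KO replicate 2). Complex I subunits mt-Nd2, mt-Nd5 and mt-Nd6 had log2 fold changes of 0.25, 0.24 and 0.26, and mt-Nd4 0.42. The complex IV subunits mt-Co2 and mt-Co3, both within the copied run, had 0.53 and 0.58, and mt-Atp8 had 0.58 (SE 0.45). At the other end, mt-Nd3 (0.06) and mt-Nd4l (−0.12) had standard errors of 0.48 and 0.51. With a mean of 2.10 CPM in WT, against 1.90 CPM in Gpr115-KO, mt-Nd4l was the least abundant mitochondrial mRNA per kb.

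The rRNA of the small mitochondrial ribosomal subunit, mt-Rnr1, read 71.4, 91.8 and 103 CPM in WT, against 106, 218 and 129 CPM in Gpr115-KO. All Gpr115-KO libraries lay above all WT libraries, and replicate 2 stood far above the other 5. The log2 fold change was 0.76 (SE 0.26), and the adjusted p was 0.295 in edgeR's quasi-likelihood test. Without Gpr115-KO replicate 2 the fold change was 0.41 with an edgeR adjusted p of 0.570. With the count filter removed the adjusted p was 0.0129, a setting that called 135 genes higher and 365 lower among 29163, against 6 and 18 among 16011. The large rRNA, mt-Rnr2, read 2637, 2273 and 2955 CPM in WT, against 2713, 4556 and 2668 CPM in Gpr115-KO, and here the groups overlapped (log2 fold change 0.34, SE 0.25, and 0.04 without Gpr115-KO replicate 2). Summed rRNA over summed mRNA was 1.62, 1.33 and 1.49 in WT, against 1.31, 1.48 and 1.39 in Gpr115-KO. Of the tRNAs, mt-Ts1, which lies antisense against the end of mt-Co1, read 5.17, 6.02 and 9.35 CPM in WT, against 11.4, 16.6 and 8.23 CPM in Gpr115-KO (log2 fold change 0.81, SE 0.31, edgeR adjusted p 0.336), and its fold change was 0.52 without Gpr115-KO replicate 2. The libraries carry no strand mark, so a read at mt-Ts1 cannot be assigned to its strand or to that of mt-Co1. The other 3 tRNA rows stayed at or below 5.66 CPM.

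The nuclear subunits and the mitochondrial mRNAs ordered the libraries almost alike, with WT replicate 1 lowest and Gpr115-KO replicate 2 highest in both. The 82 nuclear genes of complexes I to V summed to 9384, 10504 and 11988 CPM in WT, against 11418, 14693 and 10643 CPM in Gpr115-KO. Their Gpr115-KO mean was 1.15 times the WT mean, and 1.04 times without replicate 2. Mitochondrial mRNA over nuclear subunits was 0.178, 0.169 and 0.171 in WT, against 0.189, 0.219 and 0.189 in Gpr115-KO. Each Gpr115-KO library thus had a higher ratio than each WT library, with the highest in replicate 2. The ratio covers the mRNAs alone, in which mt-Nd1, mt-Co1 and mt-Cytb weigh most. Their WT means were 725, 427 and 262 CPM, of 1832 CPM for all mRNAs. Summed rRNA was 2708, 2365 and 3058 CPM in WT, against 2819, 4774 and 2796 CPM in Gpr115-KO. Set over the nuclear subunits, the rRNAs gave overlapping groups, with WT replicate 1 above Gpr115-KO replicates 1 and 3. A summed ratio over chosen genes received no test. The median transcript length was 784 nt for the mitochondrial mRNAs and 744 nt for the nuclear subunits. The length trend given below was measured on exonic length instead, which in nuclear genes can be far longer (8086 nt for Ndufs1). With that trend removed, the median log2 fold changes were 0.29 for the mitochondrial mRNAs and 0.13 for the nuclear subunits. The part of length in the ratio was not tested.

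**Figure D2:**
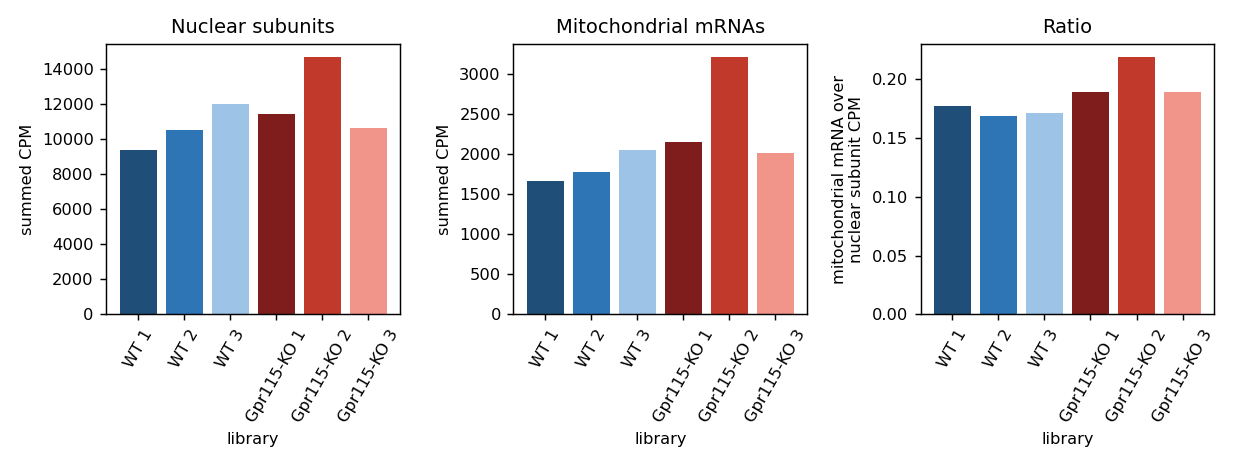
Summed CPM of the 82 nuclear subunit genes and of the 13 mitochondrial mRNAs, and the ratio of the second sum to the first, with 1 bar per library. The first 2 sums overlap between the genotypes, and the ratios lie between 0.169 and 0.178 in WT and between 0.189 and 0.219 in Gpr115-KO.

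Complex I takes electrons from NADH. All of its 36 nuclear genes were tested, 33 were above 0 and 0 were called, with a median log2 fold change of 0.18 (0.05 without Gpr115-KO replicate 2) and a range from −0.44 to 0.92. Their summed level was 4014 ± 516 CPM in WT (SD, n = 3), against 4533 ± 747 CPM in Gpr115-KO (SD, n = 3). Per kb the highest was Ndufa1, an accessory subunit encoded on the X chromosome, with 435 CPM per kb on average. The lowest was Ndufb2 with 17.7, for a median annotated transcript of 2413 nt. Levels of Ndufa1 were 93.7, 172 and 253 CPM in WT, against 173, 247 and 155 CPM in Gpr115-KO, so the WT libraries alone spanned more than the distance between the group means.

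The member with the smallest p was Ndufb8, an accessory subunit of the membrane arm that is often used in immunoblots as a sign of assembled complex I. It lies on chromosome 19 from 44548572 to 44555440 on GRCm38, minus strand. Its normalised read count was 47.5, 55.8 and 60.7 CPM in WT, against 86.6, 136 and 88.9 CPM in Gpr115-KO, and every Gpr115-KO library exceeded every WT library. Its mean was 54.7 ± 6.65 CPM in WT (SD, n = 3), against 104 ± 27.7 CPM in Gpr115-KO (SD, n = 3). The log2 fold change was 0.92 (SE 0.20), with an adjusted p of 0.137 in edgeR's quasi-likelihood test. DESeq2's Wald test, which called 65 genes higher and 184 lower among 16011, gave an adjusted p of 0.00687. Over the alternatives the adjusted p ran from 0.000279, in edgeR with no count filter, to 0.552. Without Gpr115-KO replicate 2 the log2 fold change was 0.68 with an edgeR adjusted p of 0.277. The annotation places the readthrough gene Gm20538 over the same strand, and it had 0 counts in each library.

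Of the other members of complex I, Ndufs4, an accessory subunit of the peripheral arm whose loss causes complex I deficiency, read 40.9, 48.4 and 52.3 CPM in WT, against 58.6, 79.6 and 53.3 CPM in Gpr115-KO. The groups did not overlap (log2 fold change 0.44, SE 0.18, edgeR adjusted p 0.370), though the nearest 2 libraries differed by about 1 CPM. Membrane arm subunit Ndufc2 read 50.3, 55.7 and 64.4 CPM in WT, against 73.4, 92.2 and 62.9 CPM in Gpr115-KO (log2 fold change 0.42, SE 0.18, edgeR adjusted p 0.369), and WT replicate 3 exceeded Gpr115-KO replicate 3. Without Gpr115-KO replicate 2 the fold changes of Ndufs4 and Ndufc2 were 0.25 and 0.26, with edgeR adjusted p-values of 0.700 and 0.681. The lowest fold change in the complex belonged to Ndufs1, its largest subunit, which carries iron-sulfur clusters. It read 263, 218 and 191 CPM in WT, against 209, 142 and 145 CPM in Gpr115-KO, with a log2 fold change of −0.44 (SE 0.20) and an edgeR adjusted p of 0.407. Gpr115-KO replicate 1 lay inside the WT range, and the other 2 lay below it. With 2626 nt, the Ndufs1 transcript is among the longest of the members, whose median length is 755 nt.

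On chromosome 17, which also carries Adgrf4, lie 7 members: the complex I genes Ndufa7, Ndufa11, Ndufb10, Ndufv2 and Ndufv3, the assembly factor gene Ndufaf7, and Cox7a2l. Of these, none was called. Their log2 fold changes ran from −0.12 (Ndufa11) to 0.30 (Cox7a2l). Ndufaf7 was the 1 member with all Gpr115-KO libraries below all WT libraries, at 41.5, 39.8 and 40.1 CPM in WT, against 39.8, 35.8 and 39.3 CPM in Gpr115-KO. To 3 digits the nearest libraries of the groups were equal (log2 fold change −0.08, SE 0.14, edgeR adjusted p 0.856), and 8 other annotated genes share a near-identical stretch with it.

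Complex II, succinate dehydrogenase, links the tricarboxylic acid cycle to the respiratory chain. Of its 4 genes, 3 were above 0 and 0 called, with a median of 0.08, or −0.01 without Gpr115-KO replicate 2. Their summed level was 658 ± 32.1 CPM in WT (SD, n = 3), against 666 ± 39.9 CPM in Gpr115-KO (SD, n = 3), the smallest difference of the 5 complexes in proportion. Sdhb, the iron-sulfur subunit, was the highest per kb at 267 CPM per kb and read 282, 281 and 328 CPM in WT, against 296, 354 and 288 CPM in Gpr115-KO. The flavoprotein subunit Sdha had the lowest fold change (−0.14, SE 0.16) and the membrane anchor Sdhc the highest (0.15, SE 0.18), and the groups overlapped in both. The ratio of the summed means was 1.01.

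Complex III passes electrons from ubiquinol to cytochrome c. Its 9 nuclear genes were all above 0, between 0.07 and 0.35, with 0 called and a median of 0.24. Summed, they read 978 ± 127 CPM in WT (SD, n = 3), against 1123 ± 212 CPM in Gpr115-KO (SD, n = 3). Without Gpr115-KO replicate 2, 6 of 9 were above 0 with a median of 0.03. Uqcrq, a small subunit, was highest per kb at 410 CPM per kb and read 154, 177 and 243 CPM in WT, against 194, 291 and 181 CPM in Gpr115-KO. Another small subunit, Uqcrb, had the highest fold change (0.35, SE 0.23), with levels of 38.4, 47.2 and 64.7 CPM in WT, against 60.5, 82.2 and 48.8 CPM in Gpr115-KO, and stood at 0.13 without Gpr115-KO replicate 2. Cyc1, which holds the heme of cytochrome c1, had the lowest (0.07, SE 0.15), and its libraries ran from 115 to 120.0 CPM in WT, against 105 to 135 CPM in Gpr115-KO. Cycs, the soluble carrier between complexes III and IV, read 41.2, 41.7 and 48.5 CPM in WT, against 43.6, 55.0 and 40.6 CPM in Gpr115-KO (log2 fold change 0.08, SE 0.17). The groups overlapped in each of these genes.

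Complex IV, cytochrome c oxidase, had the highest median of the nuclear complexes, 0.32, and 0.15 without Gpr115-KO replicate 2. Of its 16 tested genes, 14 were above 0 with all libraries and 16 without that replicate, and 0 were called. The fold changes ran from −0.08 to 0.50, and all 18 genes summed to 2104 ± 397 CPM in WT (SD, n = 3), against 2652 ± 590.0 CPM in Gpr115-KO (SD, n = 3). The highest nuclear member of all per kb was Ndufa4, a subunit named for complex I and now placed in complex IV, at 642 CPM per kb. It read 203, 258 and 317 CPM in WT, against 297, 429 and 269 CPM in Gpr115-KO (log2 fold change 0.36, SE 0.23). Cox8a, a small subunit, read 145, 204 and 234 CPM in WT, against 247, 341 and 234 CPM in Gpr115-KO (log2 fold change 0.50, SE 0.22, edgeR adjusted p 0.391), and WT replicate 3 and Gpr115-KO replicate 3 met at the boundary. Cox4i1 read 248, 301 and 312 CPM in WT, against 324, 547 and 319.9 CPM in Gpr115-KO, with all Gpr115-KO libraries above all WT libraries (log2 fold change 0.47, SE 0.23, edgeR adjusted p 0.436). The fold changes of Cox4i1, Cox8a and Ndufa4 without Gpr115-KO replicate 2 were 0.17, 0.31 and 0.13, with edgeR adjusted p-values of 0.823, 0.704 and 0.897.

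Several complex IV subunits have isoforms that are used in particular tissues, and the tooth germ carried the common ones. Cox4i2, an isoform of Cox4i1 known from lung and from low oxygen, made up 7.23 ± 1.497% of the pair per kb in WT (SD, n = 3), against 5.38 ± 2.08% in Gpr115-KO (SD, n = 3), with overlapping libraries. Its own level was 21.5, 25.1 and 17.6 CPM in WT, against 18.1, 17.8 and 24.8 CPM in Gpr115-KO, again with overlap. The heart and muscle isoform Cox7a1 made up 1.71 ± 0.452% of its pair with Cox7a2 in WT (SD, n = 3), against 1.64 ± 0.0610% in Gpr115-KO (SD, n = 3). Cox7a1 read 2.81, 2.73 and 2.54 CPM in WT, against 3.08, 4.17 and 3.11 CPM in Gpr115-KO. All Gpr115-KO libraries lay above all WT libraries (log2 fold change 0.36, SE 0.32, edgeR adjusted p 0.689), and the fold change was 0.20 without Gpr115-KO replicate 2. The common form Cox7a2 read 191, 238 and 298 CPM in WT, against 279, 388 and 269 CPM in Gpr115-KO.

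The muscle forms Cox6a2 and Cox8b were near the floor of detection. Cox6a2 had 4 to 7 counts in each library and Cox8b 0, 3 and 1 counts in WT, against 0, 11 and 2 in Gpr115-KO. The 11 counts of Cox8b fell in the library with the most skeletal muscle marker RNA. Per kb, Cox6a2 made up at most 0.958% of its pair with Cox6a1 and Cox8b at most 0.524% of its pair with Cox8a. Cox6b2, a testis form, made up 1.90% (WT) and 1.70% (Gpr115-KO) of its pair with Cox6b1, and Ndufa4l2, an isoform known to be induced by low oxygen, 1.77% and 1.45% of its pair with Ndufa4. Cox7b2 and Cox8c, further isoforms, are not members and had at most 1 count in a library.

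**Figure D3:**
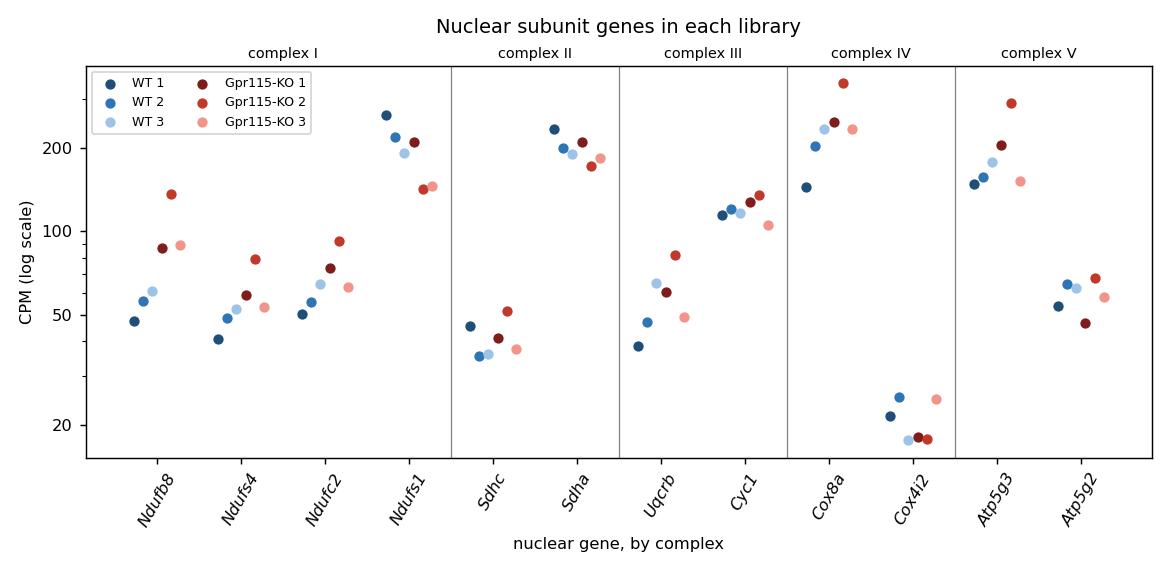
CPM of 12 nuclear subunit genes in the 6 libraries, on a log scale: those with an unadjusted p under 0.05 and, in each complex, the genes of highest and lowest log2 fold change. The Gpr115-KO points lie wholly above the WT points for Ndufb8 and Ndufs4, and the groups overlap in the other 10.

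Complex V makes ATP. All 15 nuclear genes were tested, 13 were above 0 and 0 called, with a median of 0.24, and 0.03 without Gpr115-KO replicate 2. The range was −0.06 to 0.42, and the genes summed to 2871 ± 259 CPM in WT (SD, n = 3), against 3278 ± 570.0 CPM in Gpr115-KO (SD, n = 3). The highest per kb was Atp5o, part of the stalk that joins the catalytic head to the membrane sector, at 382 CPM per kb, and its levels were 307, 317 and 323 CPM in WT, against 289, 401 and 285 CPM in Gpr115-KO (log2 fold change 0.04, SE 0.18). Mammals have 3 genes for the same c subunit of the rotor ring, whose mature proteins are identical. Of these, Atp5g3 had the highest fold change of the complex (0.42, SE 0.22, edgeR adjusted p 0.472) and Atp5g2 the lowest (−0.06, SE 0.17), and Atp5g1 lay near Atp5g2 at −0.05. Atp5g3 read 148, 157 and 177 CPM in WT, against 204, 291 and 152 CPM in Gpr115-KO, and without Gpr115-KO replicate 2 its log2 fold change was 0.15 with an edgeR adjusted p of 0.856. Atp5g2 read 53.6, 64.6 and 62.3 CPM in WT, against 46.7, 67.9 and 58.0 CPM in Gpr115-KO. Both pairs of groups overlapped, and the difference between the genes was not tested. Per kb the 3 stood at 262 (Atp5g3), 100.4 (Atp5g2) and 65.7 (Atp5g1) CPM. In CPM their means over the libraries were 188, 58.8 and 176, so Atp5g1 stood above Atp5g2. The order per kb rests on median annotated transcript lengths of 586 nt for Atp5g2 and 2675.5 nt for Atp5g1. Which of the annotated transcripts were expressed was not tested.

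Assembly and accessory factors were the class whose median was not above 0 with all 6 libraries. The 9 genes (8 Ndufaf genes for building complex I, and Atp5s) had 4 above 0, 0 called, a range from −0.24 to 0.33 and a median of −0.05. It was −0.03 without Gpr115-KO replicate 2 and −0.06 without WT replicate 1. With 5 of 9 then above 0, it was 0.10 without WT replicate 3 and 0.07 without Gpr115-KO replicate 3. The lowest fold changes were those of Ndufaf1 (−0.24, SE 0.23), Ndufaf5 (−0.19, SE 0.22) and Ndufaf4 (−0.15, SE 0.19). The class is low in the tooth germ, between 2.51 and 44.5 CPM per kb, where the median of the nuclear subunits was 138 CPM per kb. Summed over the class, the Gpr115-KO mean was 0.989 times the WT mean.

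**Figure D4:**
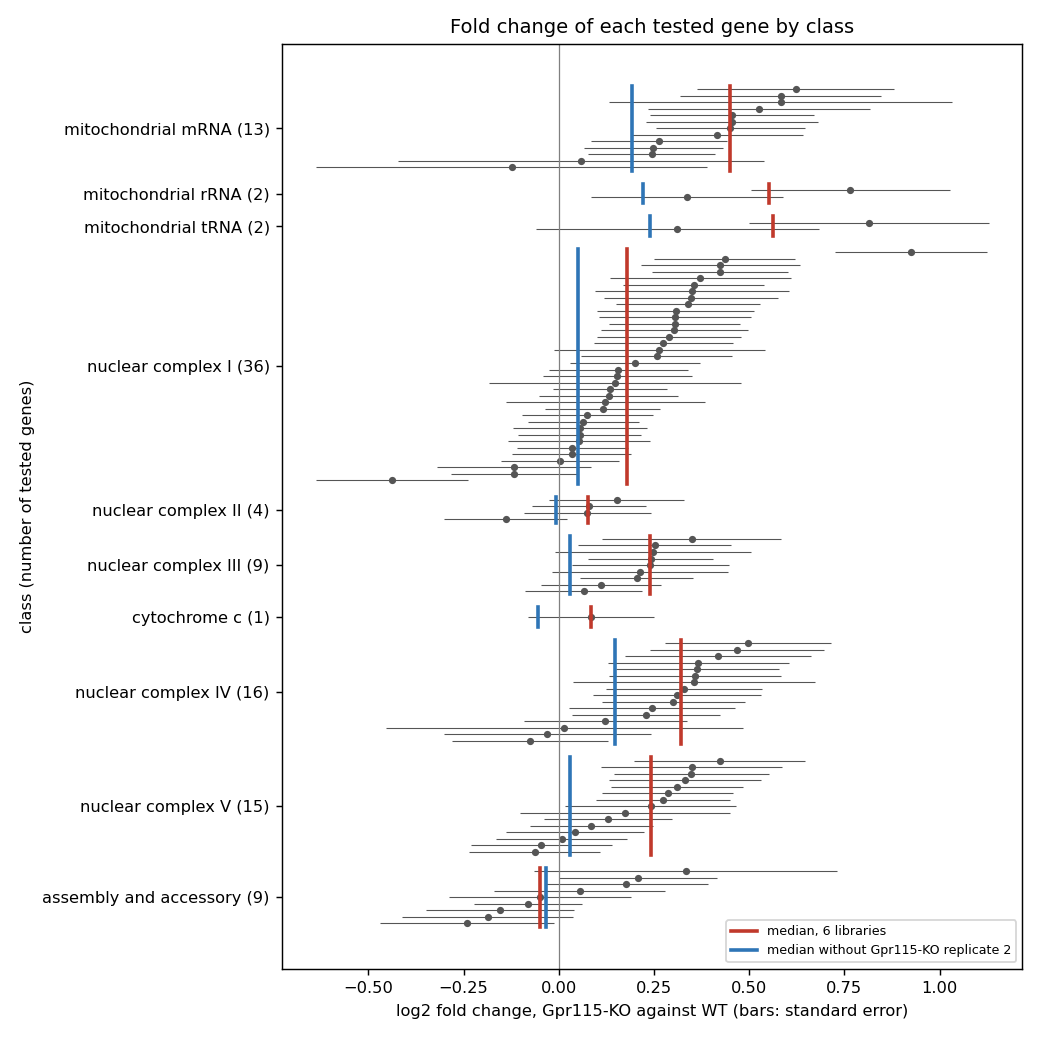
Log2 fold change (Gpr115-KO against WT, horizontal axis) of each of the 107 tested members by class, with its standard error as a bar. Red lines are class medians over the 6 libraries and blue lines the medians without Gpr115-KO replicate 2, which lie nearer 0 in every class drawn.

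Much of the variation of the members lay between libraries of the same genotype. Gpr115-KO replicate 2 was the highest of the 6 libraries for 85 of 107 tested members (79.4%), and WT replicate 1 the lowest for 62 (57.9%), against 26.3% and 20.5% of all tested genes. On a log2 scale, the median member lay 0.42 above its own mean over libraries in Gpr115-KO replicate 2 and 0.30 below it in WT replicate 1. For the nuclear members alone the median deviation in Gpr115-KO replicate 2 was 0.38, and for the mitochondrial members 0.66. In the other 4 libraries the median over all tested members stayed between −0.11 and 0.08. For WT replicate 2 it was −0.10 over the nuclear members and −0.23 over the mitochondrial members.

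**Figure D5:**
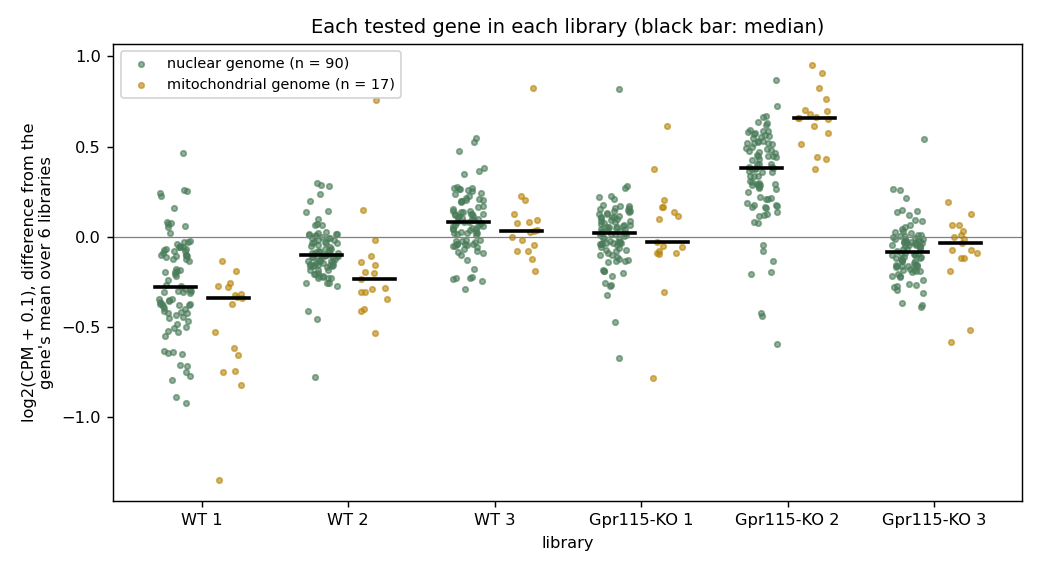
Deviation of each tested member from its own mean over the 6 libraries, on the log2(CPM + 0.1) scale, with 90 nuclear genes in green and 17 mitochondrial genes in gold. Black bars are medians. The points of Gpr115-KO replicate 2 lie mostly above 0 and those of WT replicate 1 mostly below. In WT replicate 2 the mitochondrial genes also centre below 0 and the nuclear genes nearer 0, and the remaining libraries centre near 0.

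Short transcripts deviated in the same libraries, and most members are short. Across 12859 protein-coding genes, Spearman's rho between exonic length and the deviation of a library was 0.25, 0.22 and −0.01 in WT, against −0.01, −0.25 and −0.11 in Gpr115-KO, across genes, which are not independent replicates. Split by length into 5 groups, the shortest group had 68.8% of its genes above 0, with a median of 0.15. When the length trend of each library was removed, 76 of 107 members were above 0 with a median of 0.13, and the shortest group had a median of 0.06. The class medians then were 0.29 for the mitochondrial mRNAs, 0.11 for complex I, −0.01 for complex II, 0.13 for complex III, 0.17 for complex IV and 0.20 for complex V. Gpr115-KO replicate 2 was then the highest library for 74 of the 107. What makes length track with library in these data was not tested.

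Markers of other cells also differed between libraries, and only some lists were highest in Gpr115-KO replicate 2. Skeletal muscle, rich in mitochondria, is represented by a list of 20 markers whose sum there was 350 CPM. All 20 were detected in at least 1 library, and the muscle actin Acta1 read 58.0 CPM there and 7.75 to 23.4 CPM in the other 5. The summed level of 10 erythroid markers was 139 to 159.6 CPM in WT, against 307, 398 and 159.9 CPM in Gpr115-KO. Brown fat, another tissue rich in mitochondria, was represented by 7 markers that summed to 25.2 to 37.5 CPM in WT, against 26.5, 41.8 and 42.3 CPM in Gpr115-KO. Its defining uncoupling protein Ucp1 had 0 to 2 counts in a library. The sum of the 12 ameloblast markers was highest in Gpr115-KO replicate 2, at 204078 CPM, with Ambn at 140561 CPM and Amelx at 46000 CPM. Of the 12, 5 were highest there. The median marker of that list was 350 CPM there and 346 to 429 CPM in the others. The part of these cells in the levels of the members was not tested. Keratinised epithelium, whose 10 markers summed to 283 CPM in Gpr115-KO replicate 1, was low in replicate 2 at 37.7 CPM. Leukocyte markers summed to 117 CPM in Gpr115-KO replicate 2 and 125 CPM in replicate 3. Osteoclast markers summed to 81.9 CPM in Gpr115-KO replicate 2 and 85.2 CPM in replicate 1. Endothelial markers were lowest in Gpr115-KO replicate 2 at 35.8 CPM. Schwann and nerve markers summed to 8.34 CPM there and to 7.73 to 9.35 CPM in WT.

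Near-identical sequence elsewhere in the genome was common among the nuclear members. Of the 92, 31 share at least 150 nt at 95% identity or more with another annotated gene, and their median log2 fold change was 0.24. The 59 tested members without such a copy had a median of 0.20. A gene on the other strand overlaps 31 of the 92, and reads from those stretches cannot be assigned by these libraries.

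Promoters of nuclear members were searched for the letters that 3 factors of mitochondrial biogenesis are known to bind: NRF1 (GCGCATGC), the ETS factors that include GABP (CCGGAAGT) and the ERR receptors (TCAAGGTCA), on both strands. The windows, from RefSeq on GRCm38, run from 250 bases before to 50 after each start, and 74 of the 92 members had one. The NRF1 letters occurred in 13 of 74 (17.6%) and in 608 of 10595 tested genes with a window (5.74%). The ETS letters occurred in 5 members (6.76%) against 8.77%, and the ERR letters in 2 (2.70%) against 0.293%. Below are stretches of 3 promoters that hold the NRF1 letters, which are shown as examples from complexes I and IV and cytochrome c. Capitals mark 1 match in each stretch, read on either strand. In Cox6a1 a second match, on the other strand, overlaps the marked one and runs 2 bases past it in lower case.
Ndufa6, chr15:82354336-82354405, minus strand: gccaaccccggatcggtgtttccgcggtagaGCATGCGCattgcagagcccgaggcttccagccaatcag
Cox6a1, chr5:115349082-115349151, minus strand: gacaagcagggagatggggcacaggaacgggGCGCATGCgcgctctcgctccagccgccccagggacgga
Cycs, chr6:50566591-50566660, minus strand: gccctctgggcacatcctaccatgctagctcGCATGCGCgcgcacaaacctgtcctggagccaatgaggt
The 13 members with the NRF1 letters had a median log2 fold change of 0.11, and the 60 tested members without them 0.24. The genes shown had 0.31 (Ndufa6), 0.37 (Cox6a1) and 0.08 (Cycs). A match is a description of the sequence and not a bound site.

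Lists of related genes gave no call either. Among 45 tested assembly factors outside the members, 25 were above 0 with a median of 0.03. It was 19 of 45 with a median of −0.06 without Gpr115-KO replicate 2, and without WT replicate 1 it was 21 of 45 with a median of −0.01. Ttc19, a factor for complex III, read 71.5, 58.4 and 45.0 CPM in WT, against 39.1, 27.4 and 27.9 CPM in Gpr115-KO (log2 fold change −0.89, SE 0.21, edgeR adjusted p 0.171), with each Gpr115-KO library below each WT library. Cox15, which makes the heme A of complex IV, read 133, 117 and 124 CPM in WT, against 77.0, 32.5 and 83.0 CPM in Gpr115-KO (log2 fold change −0.96, SE 0.30, edgeR adjusted p 0.274), again without overlap.

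For transcription, replication and RNA processing in mitochondria, 11 of 31 tested genes were above 0 with a median of −0.09. Twnk, the helicase of mitochondrial DNA, had a log2 fold change of −0.61 (SE 0.21), and Fastkd5, which helps process mitochondrial RNA, −0.76 (SE 0.29). Of 13 tested regulators of mitochondrial biogenesis, 4 were above 0 with a median of −0.12. The receptor gene Esrrg had 1.21 (SE 0.63) at a level of at most 2.38 CPM, and Gabpb2, a GABP subunit, −0.43 (SE 0.24). The medians of both lists lay below 0, and that of all tested genes was 0.01. In the same order they were −0.14 and −0.26 without WT replicate 3, and −0.06 and −0.17 without WT replicate 1. Without Gpr115-KO replicate 2 they were −0.13 and −0.10, and with the trend on exonic length removed −0.10 and −0.07.

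In the tricarboxylic acid cycle list 13 of 20 genes were above 0 with a median of 0.05, and without Gpr115-KO replicate 2 it was 8 of 20 with a median of −0.01. The pyruvate carrier gene Mpc2 had 0.31 (SE 0.16), and Dld, the dihydrolipoamide dehydrogenase shared by several complexes, −0.31 (SE 0.16). In glycolysis and lactate transport 12 of 20 were above 0 with a median of 0.03. That count was 8 with a median of −0.02 without WT replicate 1, and 9 with a median of −0.01 without Gpr115-KO replicate 3. Hexokinase 2 (Hk2), which starts glycolysis, read 265, 256 and 261 CPM in WT, against 155, 168 and 158 CPM in Gpr115-KO (log2 fold change −0.70, SE 0.15, edgeR adjusted p 0.123). All Gpr115-KO libraries lay well below all WT libraries, and replicate 2 was not apart from the other 2. Triosephosphate isomerase (Tpi1) had 0.37 (SE 0.18).

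Carriers and import genes had 15 of 20 above 0 with a median of 0.09, and 10 of 20 with a median of −0.00194 without Gpr115-KO replicate 2. The import subunits were Timm50 at 0.39 (SE 0.17) and Tomm22 at 0.33 (SE 0.18). Of 77 tested genes of the mitochondrial ribosome, which translates the mitochondrial mRNAs, 57 were above 0 with a median of 0.15 (0.03 without Gpr115-KO replicate 2). Mrps10 read 14.96, 12.5 and 14.4 CPM in WT, against 20.2, 19.99 and 18.9 CPM in Gpr115-KO. Mrpl9 read 14.4, 15.1 and 13.8 CPM in WT, against 19.3, 21.4 and 19.8 CPM in Gpr115-KO. In both, each Gpr115-KO library exceeded each WT library with little spread inside the groups, and the edgeR adjusted p was 0.302 and 0.304.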

How the data were processed

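Total RNA of 6 tooth germ samples was made into Nextera XT libraries, which carry no strand mark, and sequenced as paired reads on a HiSeq1500, per the labels' protocols. Alignment was to GRCm38 (mm10), and the tools listed are STAR 2.5.2a, edgeR, limma and DESeq2, per the submitters' processing notes. What counted the reads, how reads with several matches were treated and which annotation was used is not given in the sources here. Raw counts for 48709 genes were deposited by the authors, and 15 transgene rows, with at most 8 counts in a library, were left out. The deposited normalised table is a signal, CPM scaled by TMM, and gave whole reads for 100% of its values (tolerance 0.01). The members and gene lists were chosen with earlier results of these data known.

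The deposited counts entered edgeR 4.0.16 (R 4.3.3): filterByExpr (minimum count 10, minimum total 15, 16011 genes kept), TMM, genotype as the only term, a robust two-sided quasi-likelihood F test, and Benjamini-Hochberg adjustment over all genes, with an adjusted p under 0.05 called. This called 6 genes higher and 18 lower. Reads recovered from the normalised table equalled the deposited counts for 100% of its values. The same numbers of calls from them are thus no separate check. The fit was tested on simulated data, and its biological coefficient of variation on the real data was 23.1%. Printed CPM carry no pseudocount. Levels per kb divide by the median length of a gene's protein-coding GENCODE vM21 transcripts. Copies were found with blastn 2.17.0. Library pairs of the same genotype differed by a chi-square of 14.8 to 60.7 per degree of freedom, so no pair was taken for a repeat deposit of 1 library. This does not show that they came from separate animals.

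Named were the mitochondrial mRNAs and rRNAs, in each complex the member of highest level per kb and those of highest and lowest fold change, the 6 of smallest p in each direction, the isoform pairs and the members on chromosome 17, which came to 54. Of each list outside the members, the 2 of smallest p were named. Cycs, Atp5g1, Ndufa6, the tRNAs and single genes beside them were added after their values were seen. Alternatives were other scalings, count filters and tests (DESeq2 1.42.0, limma 3.58.1), the replicate number as a block, the trend on exonic length removed, and each library left out. Floors and intervals of counts cover counting error only.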

Additional observations from a re-analysis of the deposited data

How the results depend on the processing

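The direction of the medians held in each alternative run: the nuclear subunits had a median log2 fold change of 0.07 to 0.34 and the mitochondrial mRNAs of 0.19 to 0.57 when libraries were left out, with the lowest values without Gpr115-KO replicate 2. The number of members called higher was 0 in the edgeR fits with a count filter, 1 with DESeq2's Wald test (Ndufb8, adjusted p 0.00687) and 2 in edgeR with no count filter (Ndufb8 and mt-Rnr1). Library totals in place of TMM moved the median of all genes to 0.09, and 99 of 107 members were then above 0. The 8 members with an unadjusted p under 0.05 became 26 with library totals, 16 with no count filter, 12 with DESeq2 and 3 with the length trend removed.

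With the replicate number as a block, 0 members were called and the medians were 0.24 for nuclear subunits and 0.42 for mitochondrial mRNAs. Over all genes the block called 18 higher and 54 lower. edgeR without it called 6 and 18, DESeq2 65 and 184, edgeR with no count filter 135 and 365, and edgeR without Gpr115-KO replicate 1 called 9 and 39. Libraries of the same number had correlations of deviations of 0.27, 0.03 and −0.07, and libraries of different numbers −0.19 to 0.15. With 3 libraries in a group, these values cannot decide whether the number pairs them.

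Of the named members' fold changes under the alternatives, 899 kept their direction and side of the threshold and 33 changed sign, all of them without a call. With library totals alone these were Atp5g2 (0.0101), Cox4i2 (0.00298), Ndufa4l2 (0.0629) and Ndufaf7 (0.00229). With the length trend removed they were Atp5o (−0.0279), Cox6b2 (−0.10), Ndufa1 (−0.10) and mt-Nd3 (−0.18). Cox6b2 was also −0.00267 with the block, −0.0565 with limma-voom and −0.00374 with limma-trend. When each library was left out in turn, the ranges of the genes that changed sign were Atp5g2 −0.20 to 0.0653, Atp5o −0.14 to 0.13, Cox4i2 −0.25 to 0.0515, Cox6b2 −0.52 to 0.29, Cox7b −0.00858 to 0.36, Cyc1 −0.0100 to 0.16, Ndufa1 −0.15 to 0.52, Ndufa4l2 −0.22 to 0.15, Ndufb10 −0.0645 to 0.27, Ndufb2 −0.21 to 0.00951, Ndufv2 −0.0627 to 0.14, Sdhb −0.0226 to 0.15, Uqcrq −0.028 to 0.42, mt-Nd3 −0.35 to 0.61 and mt-Nd4l −0.47 to 0.29. The cause of these changes was not tested. Depth limits the genes near the floor, such as Cox8b and Cox6a2.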
